A study of Mus musculus with 6 samples.

Results

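The kinesin motor genes of mouse muscle stem cells (MuSCs) were examined in PRO-seq data of proliferating Ctrl and Kmt5b sKO MuSCs. They were chosen by symbol, as every gene of the deposited table named Kif with a number and optional letters, or Kifc with a number, which gave 39 of 14546 genes. By their known roles 12 were grouped as mitotic kinesins, 17 as transport kinesins and 9 as other kinesins, and *Kif1bp* is the gene of a kinesin binding protein that has no motor domain. Both genotypes carried Pax7CreERT, a Cre recombinase that is expressed from the *Pax7* locus in MuSCs and is activated by tamoxifen. The 3 Ctrl libraries are labelled Suv4-20h1WT and the 3 Kmt5b sKO libraries Suv4-20h1KO, Suv4-20h1 being another name of *Kmt5b*, the gene of a methyltransferase for lysine 20 of histone H4. The sKO cells came from floxed mice, so that the deletion depended on Cre activity in *Pax7*-expressing cells, and MuSCs were purified from limb and trunk muscle with a magnetic cell isolation kit before culture. The mice were kept on a C57BL/6 background. The labels give no age, and they do not say whether the 3 libraries of a genotype came from separate animals. The paper names 3 biological replicates for PRO-seq. The p-values below measure the spread between libraries, which may not be a spread between animals.

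Kinesins are motors that hydrolyse ATP to move along microtubules or to change their ends. Mitotic kinesins build the spindle, move and align chromosomes and bring about cytokinesis, and their genes are transcribed mainly in late phases of the cell cycle. Transport kinesins carry vesicles, mitochondria and other cargo in cells that divide and in cells that do not. In skeletal muscle, the kinesin-1 heavy chain KIF5B with its light chains is known for the movement and spacing of myonuclei.

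PRO-seq maps engaged RNA polymerases by the labelling of nascent RNA in isolated nuclei. Each gene has 2 deposited values, 1 in RPM for its first 400 nt, the TSS region, and 1 in TPM, which is per length, for the gene body behind it. The listed genes held 926904 to 3246052 reads per library in TSS regions and 7425426 to 16249137 reads in gene bodies. Fold changes are given on the scale log2(value + 0.5), as Kmt5b sKO over Ctrl, and a gene was called where limma gave an adjusted p (Benjamini-Hochberg) under 0.1 over the 12451 autosomal genes whose mean reached 0.5 in both regions. All kinesins but *Kif4*, which lies on chromosome X, and *Kifc2*, which had 0 TSS reads in every library, were among these genes, 37 in all. *Kif4* was taken from the same fit with X and Y genes kept (12877 genes). Muscle stem cell markers were present, with 8 of 8 tested and 0 called in either region in limma (1 in the gene body and 0 in the TSS region at an unadjusted p under 0.05, median log2 fold change in the gene body 0.0058, and *Myod1* at 1091 TPM in Ctrl). The gene body of *Kmt5b*, which also covers parts that were not deleted, had 30.6 to 38.5 TPM in Ctrl and 35.0 to 42.6 TPM in sKO libraries and does not check the genotype. Ctrl replicate 3 stood apart from the other Ctrl libraries at many of the genes below.

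The mitotic kinesins had a lower share of the nascent signal in Kmt5b sKO than in Ctrl MuSCs. The values are scaled to a fixed total per library, so a change in total transcription would not be seen. Over gene bodies all 3 sKO libraries lay below all 3 Ctrl libraries for 12 of 12 mitotic kinesins, an arrangement found at 9.34% of all tested genes. Of all 37 kinesins tested 11 were called in the gene body (2.99% of all tested genes were) and 14 had an unadjusted p under 0.05 (15.9%). Of the 11 autosomal mitotic ones, 10 were called lower (1.38% of all tested genes were) and 0 higher, and *Kif4* was called lower in the fit with X and Y genes (1.34%). The sKO mean was 39.0% to 61.6% of the Ctrl mean. The median log2 fold change was -1.01, beside 0.023 over all genes tested. Summed over the 12 genes, gene body signal came to 286.0, 260.3 and 196.6 TPM for the 3 Ctrl replicates in order, and to 126.0, 126.2 and 125.4 TPM for the 3 sKO replicates. The sKO libraries were nearly equal, the Ctrl libraries were spread, and Ctrl replicate 3 was the lowest Ctrl library for 11 of the 12 genes. In bulk samples fewer dividing cells and less transcription per dividing cell cannot be told apart.

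Among the motors that set up the bipolar spindle were *Kif11*, *Kif15* and *Kifc1*. *Kif11* (ENSMUSG00000012443, chr19:37376403-37421859), the gene of the kinesin-5 Eg5 that slides antiparallel microtubules apart, had gene body values of 27.6, 26.5 and 17.7 TPM in Ctrl libraries, against 10.5, 10.4 and 11.4 TPM in sKO libraries. Its log2 fold change was -1.09 (SE 0.19, adjusted p = 0.0655 in limma). *Kif15* (ENSMUSG00000036768, chr9:122951046-123018733), a kinesin-12 that supports bipolarity beside KIF11, had 20.5, 17.5 and 14.2 TPM in Ctrl libraries, against 7.71, 9.12 and 7.82 TPM in sKO libraries. At both genes the lowest Ctrl library, replicate 3, still lay above the highest sKO library. *Kifc1*, a minus-end motor that focuses spindle poles, had 30.03, 25.04 and 18.32 TPM against 14.7, 11.6 and 13.5 TPM. The groups did not overlap, but *Kifc1* missed the threshold (log2 fold change -0.84, SE 0.20, adjusted p = 0.108 in limma). Its paralog *Kifc5b*, which is nearly identical and lies outside the naming rule, had 23.0, 19.6 and 16.2 TPM in Ctrl libraries, against 11.8, 11.2 and 12.2 TPM in sKO libraries. Since 1 random position was kept for reads with several matches, the reads of both genes cannot be told apart with certainty.

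The chromokinesins, motors of the chromosome arms, are *Kif4*, which also acts at the anaphase midzone, and *Kif22*. *Kif4* (chrX:100625737-100727214) had 15.8, 12.1 and 10.2 TPM in Ctrl libraries, against 5.40, 6.19 and 5.70 TPM in sKO libraries, a log2 fold change of -1.06 (SE 0.19, adjusted p = 0.0685 in limma with X and Y genes). *Kif22* had 30.7, 26.5 and 15.9 TPM against 12.3, 10.3 and 9.87 TPM. In both the range of the Ctrl libraries was wider than the gap between the lowest of them and the highest sKO library. *Pdzd11* overlaps *Kif4* on the opposite strand, and reads were counted on the sense strand.

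The kinesins that shorten or cap microtubules fell to a similar degree. *Kif2c*, the gene of the centromere depolymerase MCAK, had 25.4, 24.8 and 15.7 TPM in Ctrl libraries, against 11.2, 9.93 and 10.1 TPM in sKO libraries. *Kif18a*, a kinesin-8 that limits the length of kinetochore microtubules, had 10.1, 8.03 and 9.68 TPM against 4.87, 4.94 and 3.32 TPM. It was the mitotic kinesin whose lowest Ctrl library was not replicate 3. *Kif18b*, a kinesin-8 of astral microtubules, had 36.1, 33.0 and 21.0 TPM against 14.72, 13.04 and 16.93 TPM and lay just inside the threshold (log2 fold change -0.96, SE 0.22, adjusted p = 0.0998 in limma). *Kif18b* was no longer called when X and Y genes were kept (adjusted p = 0.1005 in limma, and 0.000289 to 0.285 over all alternatives).

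The kinesins of the midzone and of cytokinesis held the smallest and the largest change. *Kif14*, a midbody kinesin, had 12.9, 11.6 and 7.92 TPM in Ctrl libraries, against 4.47, 4.5 and 3.64 TPM in sKO libraries, the lowest log2 fold change of all kinesins in the gene body (-1.24, SE 0.21, adjusted p = 0.0655 in limma). *Kif20b*, which acts in the completion of cytokinesis, had 18.8, 18.7 and 15.9 TPM against 9.65, 10.6 and 8.25 TPM. The groups did not overlap at either gene. At *Kif14* the range of the Ctrl libraries was wider than the gap between the lowest of them and the highest sKO library, and at *Kif20b* it was narrower. *Kif23*, the motor of centralspindlin, had 23.0, 23.1 and 21.0 TPM in Ctrl libraries, against 12.1, 13.9 and 14.9 TPM in sKO libraries. *Kif20a*, which brings the chromosomal passenger complex to the midzone, had 35.1, 33.4 and 29.1 TPM against 18.4, 21.6 and 20.1 TPM. These kinesin-6 genes had the mildest falls of the set, with log2 fold changes of -0.70 (SE 0.13) for *Kif23* and -0.69 (SE 0.13) for *Kif20a* (adjusted p = 0.075 in limma for both), together with tight Ctrl libraries.

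**Figure D1:**
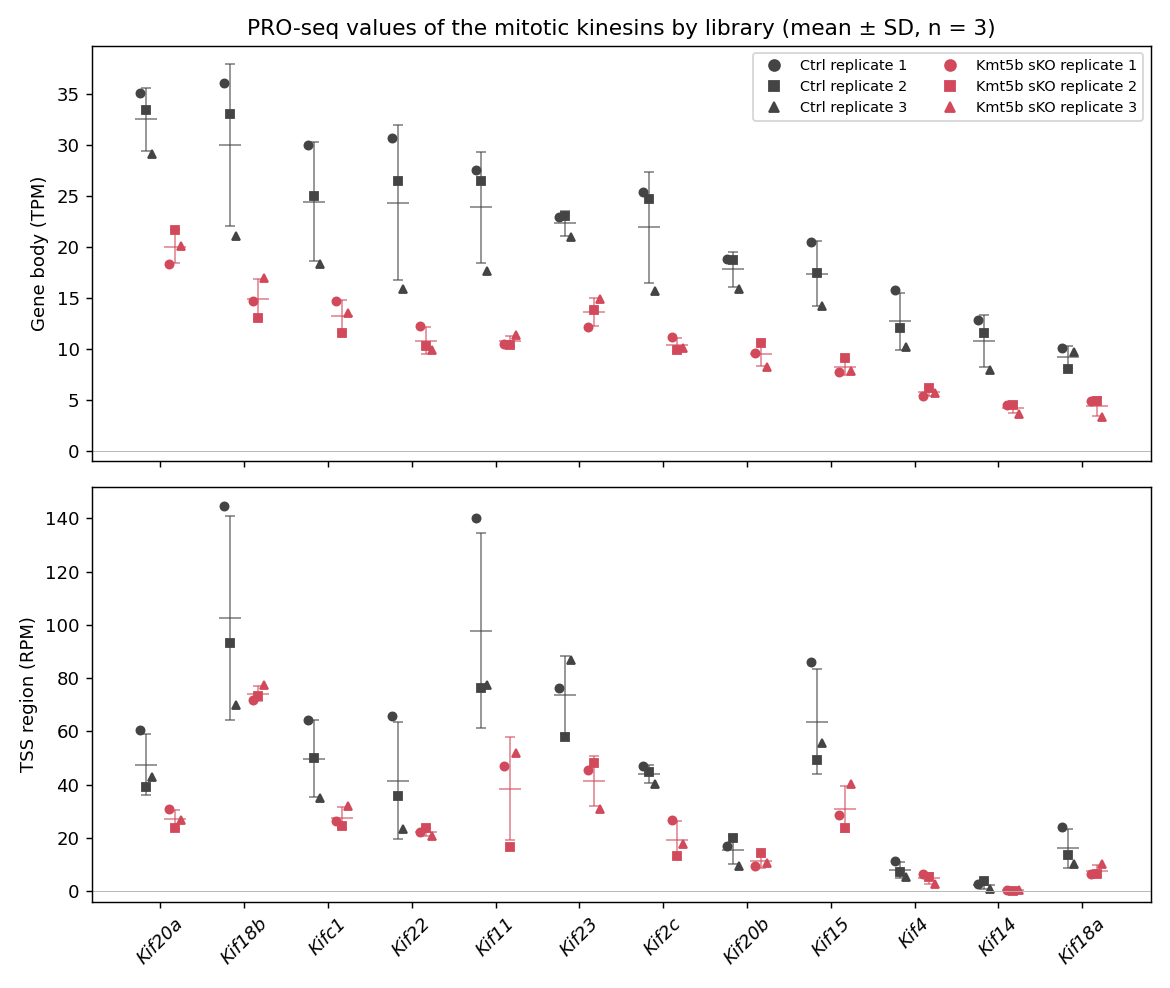
Gene body values in TPM (top) and TSS values in RPM (bottom) of the 12 mitotic kinesins, with 1 point per library, ordered by the Ctrl mean in the gene body; bars show the mean ± SD of 3 libraries. In the gene body every sKO library lies below every Ctrl library for all 12 genes, while in the TSS region this holds for 8 genes.

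The calls rested on small margins. The adjusted p of the 11 autosomal mitotic kinesins lay between 0.0655 and 0.108 in limma, so that at an adjusted p under 0.05 the count was 0 (11 had an unadjusted p under 0.05). Of all 12451 tested genes 1 was called at that threshold. The number of kinesins called in the gene body, 11 with 10 lower, was 0 in limma when Ctrl replicate 1 or any single sKO library was left out (11 lower at an unadjusted p under 0.05 each time), 2 without Ctrl replicate 2 and 13 without Ctrl replicate 3. The loss of calls ran through the whole table. Of all 12451 tested genes, 0 were called without Ctrl replicate 1 or any single sKO library. Without Ctrl replicate 2 the count over all genes was 261, and without Ctrl replicate 3 it was 836.

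In the TSS region the mitotic kinesins had lower values too, with fewer calls. The log2 fold change was negative for 12 of 12, with a median of -0.83 over the 11 autosomal genes beside 0.081 over all genes, and 3 of 11 were called lower (0.731% of all tested genes were) and 9 had an unadjusted p under 0.05 (11%). The groups did not overlap for 8 of 12 genes (sKO below Ctrl at 5.33% of all tested genes). *Kif11* had 139.9, 76.4 and 77.3 RPM in Ctrl libraries, against 47.2, 16.5 and 52.0 RPM in sKO libraries (log2 fold change -1.43, SE 0.34, adjusted p = 0.0635 in limma). *Kif2c* had 47.0, 44.8 and 40.2 RPM against 26.9, 13.2 and 17.9 RPM (log2 fold change -1.22, SE 0.28, adjusted p = 0.0549 in limma). *Kif15* had 86.2, 49.4 and 55.5 RPM against 28.9, 23.8 and 40.5 RPM (log2 fold change -1.02, SE 0.27, adjusted p = 0.0852 in limma). At each of these genes all sKO libraries lay below Ctrl, and Ctrl replicate 1 was the highest library. The libraries overlapped at *Kif4*, *Kif18b*, *Kif20b* and *Kif22*. *Kif18b* had 144.5, 93.1 and 69.9 RPM in Ctrl libraries, against 71.8, 73.3 and 77.3 RPM in sKO libraries, so that Ctrl replicate 3 lay below all sKO libraries. *Kif14* had few TSS reads, 12, 7 and 4 in Ctrl and 2, 0 and 1 in sKO libraries, a ratio of Ctrl to sKO of 4.55 (95% interval 1.38 to 23.7, exact binomial, counting error only).

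Promoter sequences of the mitotic kinesins were compared with those of the transport kinesins, since the former moved together. RefSeq promoters of GRCm38.p6, from 250 bases before to 50 after the start, were matched by symbol for 29 of the 39 genes, among them 11 mitotic kinesins (all but *Kif20a*) and 11 transport kinesins. They were searched on both strands for TTTGAA, the core of the cell cycle genes homology region (CHR) that MuvB complexes bind, for CCAAT, the box bound by NF-Y, and for E2F cores, which are TTTGGCG with its variant TTTCCCG, further TTTCGCG and also, as the last form searched, TTTGCCG. No match of one motif overlapped a match of another in the promoters printed here. The CHR core was found in 10 of 11 mitotic and 0 of 11 transport kinesin promoters, beside 17.9% of all 32851 promoters of the table. The CCAAT box was found in 7 of 11 mitotic and 3 of 11 transport promoters (37.4% of all), an E2F core in 2 of 11 and 1 of 11 (6.70% of all), and the CHR core together with the CCAAT box in 7 of 11 and 0 of 11 (6.95% of all). Of the 7 matched promoters of other kinesins, 2 held the CHR core, those of *Kif26b* and *Kif27*, and both also held the CCAAT box. The log2 fold changes of these genes in the gene body were 0.19 and 0.41. Among promoters whose RefSeq start lay within 100 nt of the start the authors list, the CHR core was in 7 of 8 mitotic, 0 of 11 transport and 1 of 6 other promoters. Median GC content was 60.7% in the mitotic, 69.3% in the transport and 52.7% in all promoters. Printed here are 5 promoters of called mitotic kinesins with a start within 100 nt of the listed one, 5′ to 3′, with CHR, CCAAT and E2F matches in capitals in either orientation (read on the other strand, CHR is TTCAAA while the CCAAT box appears as ATTGG). Those of *Kif11* at chr19:37376132-37376431 (plus strand), *Kif22* at chr7:127042371-127042670 (minus strand) and *Kif23* at chr9:61946750-61947049 (minus strand) hold the CHR core and the CCAAT box, that of *Kif15* at chr9:122950831-122951130 (plus strand) holds the CHR core beside an E2F core, and that of *Kif18a* at chr2:109280488-109280787 (plus strand) is the mitotic one without a CHR core.
Kif11: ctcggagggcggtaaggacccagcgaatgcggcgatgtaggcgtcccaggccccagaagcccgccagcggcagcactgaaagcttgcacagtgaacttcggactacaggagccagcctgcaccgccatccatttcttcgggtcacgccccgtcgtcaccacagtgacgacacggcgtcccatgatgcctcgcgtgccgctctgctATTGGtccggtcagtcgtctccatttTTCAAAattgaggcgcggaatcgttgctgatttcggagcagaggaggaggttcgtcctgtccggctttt
Kif22: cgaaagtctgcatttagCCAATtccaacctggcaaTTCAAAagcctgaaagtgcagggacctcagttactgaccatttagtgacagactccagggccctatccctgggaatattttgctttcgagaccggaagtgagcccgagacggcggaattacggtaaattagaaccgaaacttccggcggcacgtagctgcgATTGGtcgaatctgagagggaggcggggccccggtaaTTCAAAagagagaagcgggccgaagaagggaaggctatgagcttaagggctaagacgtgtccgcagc
Kif23: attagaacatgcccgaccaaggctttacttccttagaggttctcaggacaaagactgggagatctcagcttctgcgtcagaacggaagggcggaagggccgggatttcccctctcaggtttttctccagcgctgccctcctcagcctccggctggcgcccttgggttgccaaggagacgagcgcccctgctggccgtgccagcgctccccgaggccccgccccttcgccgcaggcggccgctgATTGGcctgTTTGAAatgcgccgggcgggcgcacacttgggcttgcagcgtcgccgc
Kif15: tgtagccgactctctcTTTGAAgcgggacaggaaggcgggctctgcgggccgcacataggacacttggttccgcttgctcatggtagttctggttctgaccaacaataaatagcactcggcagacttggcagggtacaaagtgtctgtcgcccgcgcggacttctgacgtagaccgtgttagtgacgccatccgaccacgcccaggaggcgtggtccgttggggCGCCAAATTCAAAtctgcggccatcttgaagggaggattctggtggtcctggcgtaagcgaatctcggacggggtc
Kif18a: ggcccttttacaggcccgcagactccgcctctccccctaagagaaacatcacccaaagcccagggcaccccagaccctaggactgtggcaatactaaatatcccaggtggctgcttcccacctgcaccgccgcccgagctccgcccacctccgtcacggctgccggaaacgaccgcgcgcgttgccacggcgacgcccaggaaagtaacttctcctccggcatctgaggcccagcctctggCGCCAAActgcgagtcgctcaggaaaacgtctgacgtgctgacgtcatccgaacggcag

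The CHR core nearest to the start began 19 nt upstream in *Kif11* and *Kif15*, 17 nt upstream in *Kif22* and at position 3 downstream in *Kif23*. A second match began 234 nt upstream in *Kif15* and 215 nt upstream in *Kif22*. The nearest CCAAT box began 45 nt upstream of the start in *Kif11*, 54 nt in *Kif22* and 7 nt in *Kif23*. A match describes the letters and shows no binding.

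**Figure D2:**
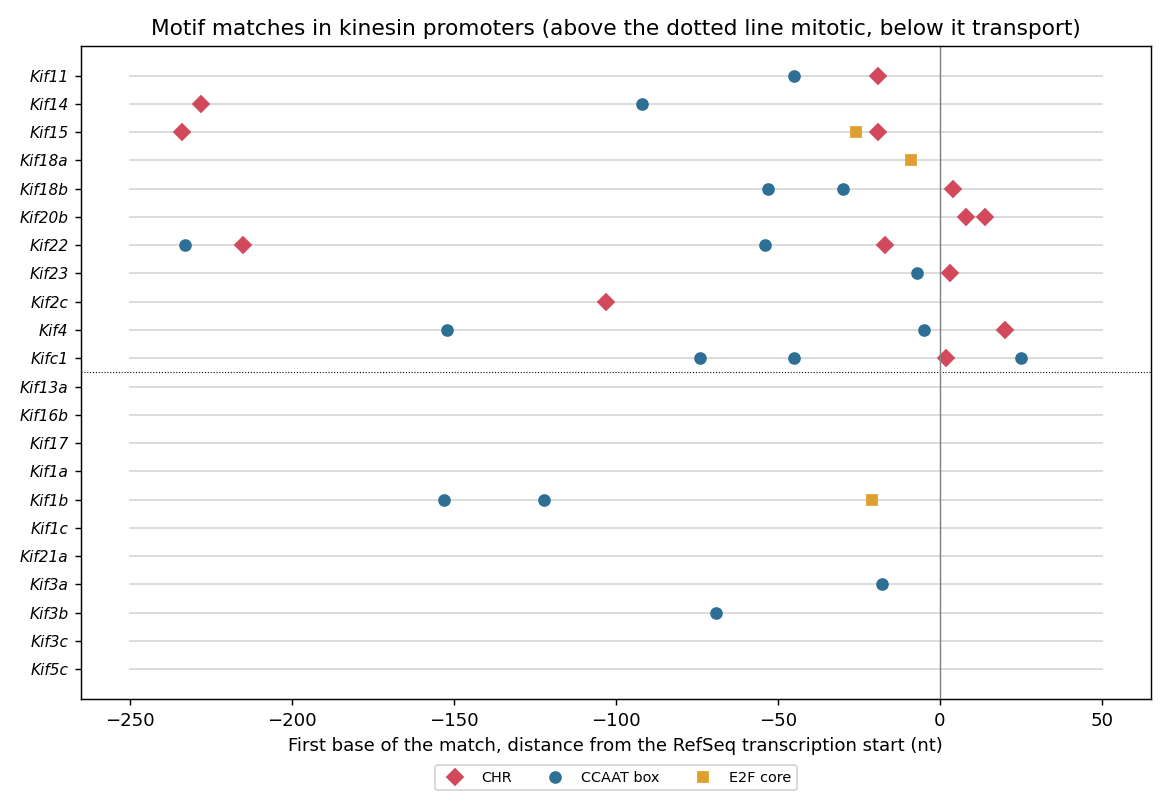
Positions of CHR cores, CCAAT boxes and E2F cores in the promoters of 11 mitotic kinesins (above the dotted line) and 11 transport kinesins (below it); the x axis is the distance in nt of the first base of each match from the RefSeq start. CHR cores appear in 10 of 11 mitotic and 0 of 11 transport promoters.

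The transport kinesins did not share this shift. In the gene body 16 of 17 were tested, 1 was called higher (1.61% of all tested genes were) and 0 lower, and their median log2 fold change was 0.12. The libraries of both genotypes overlapped at 12 of 17, and sKO lay above Ctrl at 3 (12% of all tested genes). They lay below at 2 (9.34% of all tested genes), *Kif16b* and *Kif21b*, whose log2 fold changes were -0.12 and -0.18 (adjusted p = 0.770 and 0.610 in limma). In the TSS region 0 of 16 were called in limma (1 at an unadjusted p under 0.05, beside 1.66% of all tested genes called in either direction), 0 in edgeR and 0 in DESeq2, with a median log2 fold change of 0.16.

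The 3 transport kinesins with the highest gene body values in Ctrl were *Kif5b*, *Kif1c* and *Kif1b*. *Kif5b*, the ubiquitous kinesin-1 heavy chain, had 60.6, 63.3 and 52.8 TPM in Ctrl libraries, against 67.3, 59.7 and 77.8 TPM in sKO libraries (log2 fold change 0.21, SE 0.15, adjusted p = 0.570 in limma). *Kif1c*, a vesicle motor, had 34.9, 40.3 and 27.0 TPM against 37.5, 36.6 and 34.6 TPM. *Kif1b*, which carries mitochondria and vesicles, had 30.6, 40.3 and 24.1 TPM against 39.9, 33.8 and 39.4 TPM. All these groups overlapped, and Ctrl replicate 3 was again the lowest library. The Ctrl mean of *Kif5b*, 58.9 TPM, was the highest of all kinesins, above the 32.5 TPM of *Kif20a*, the highest mitotic one.

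*Kif1a* was the transport kinesin called higher. This kinesin-3 (ENSMUSG00000014602, chr1:93017940-93101951), best known for carrying synaptic vesicle precursors in neurons, had 0.83, 1.21 and 0.67 TPM in the gene body of Ctrl and 2.95, 4.6 and 3.18 TPM of sKO libraries. Every sKO library was above every Ctrl library, and the log2 fold change was 1.53 (SE 0.25, adjusted p = 0.0655 in limma). The call was lost when Ctrl replicate 1 (adjusted p = 0.201 in limma) or any single sKO library was left out (adjusted p from 0.160 to 0.215). In these fits 0 of all tested genes were called. The log2 fold change of *Kif1a* with 1 library left out ran from 1.36 to 1.69. Over all alternatives its adjusted p ranged from 1.23e-09 in DESeq2 to 0.244. In the TSS region *Kif1a* had 3, 1 and 2 reads in Ctrl and 9, 6 and 9 reads in sKO libraries, a ratio of sKO to Ctrl of 6.74 (95% interval 2.68 to 20.1, exact binomial, counting error only), and was not called (adjusted p = 0.121 in limma). Glial markers had higher values beside it, with a summed gene body level of 8.75 to 11.7 TPM in Ctrl and 15.8 to 25.8 TPM in sKO libraries over 4 of 4 genes, 2 of which were tested, and *Sox10* was called higher (log2 fold change 1.56, adjusted p = 0.0754 in limma). Their part in the value of *Kif1a* was not tested.

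Of the remaining transport kinesins, *Kif5c* and *Kif17* had an unadjusted p under 0.05. *Kif5c*, a kinesin-1 heavy chain found mostly in neurons, had 2.14, 3.60 and 2.55 TPM in Ctrl libraries, against 5.15, 5.47 and 4.39 TPM in sKO libraries (log2 fold change 0.77, adjusted p = 0.142 in limma). *Kif17*, a kinesin-2 that works as a homodimer, had 1.71, 1.13 and 2.40 TPM against 3.73, 3.22 and 3.32 TPM (log2 fold change 0.84, adjusted p = 0.160 in limma). The sKO libraries lay above Ctrl at both genes, neither of which passed the threshold in limma with all libraries. *Kif5c* was called higher in edgeR (adjusted p = 0.0562) and in DESeq2 (adjusted p = 0.00381), and over all alternatives its adjusted p ranged from 0.00381 to 0.358. *Kif17* was called higher in DESeq2 (adjusted p = 0.0587) and in limma without Ctrl replicate 3 (adjusted p = 0.0677), within a range of 0.0587 to 0.386. The subunits of heterotrimeric kinesin-2, *Kif3a* and *Kif3b*, which cilia require, had log2 fold changes of 0.14 and 0.019. *Kif5a*, another neuronal kinesin-1, had 1.49, 1.25 and 0.83 TPM in the gene body of Ctrl and 1.21, 1.15 and 2.00 TPM of sKO libraries, and the lowest TSS fold change of the class (-1.33, SE 0.67, adjusted p = 0.491 in limma). That TSS value rested on few reads, 13, 5 and 9 in Ctrl and 4, 0 and 3 in sKO libraries.

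**Figure D3:**
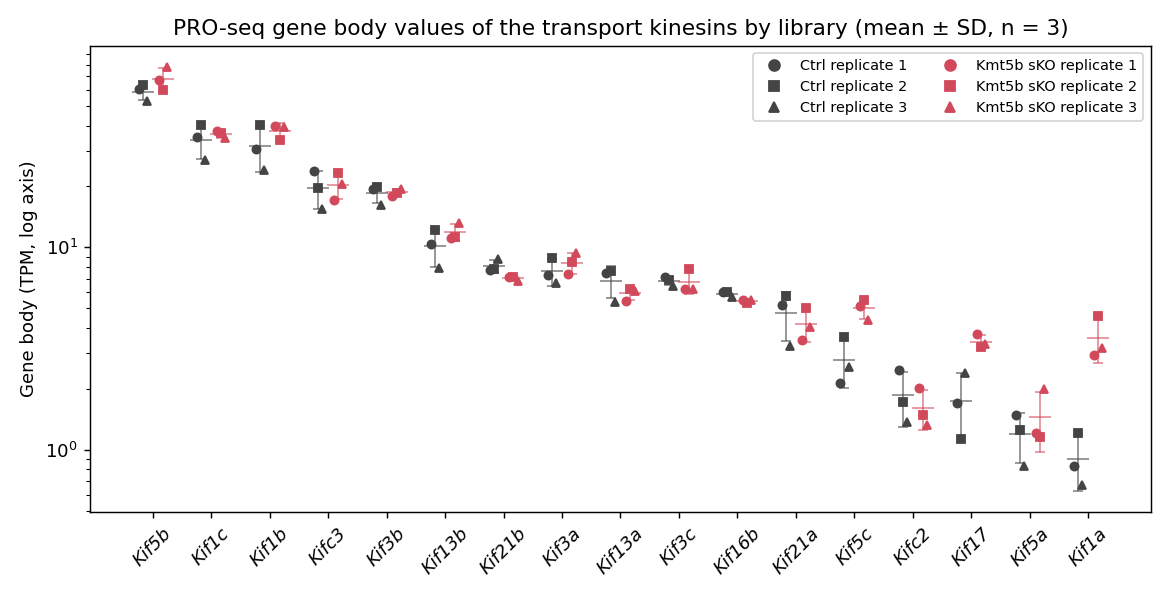
Gene body values in TPM on a log axis of the 17 transport kinesins, with 1 point per library and the mean ± SD of 3 libraries, ordered by the Ctrl mean. The points of both genotypes overlap for 12 genes, and *Kif1a*, *Kif5c* and *Kif17* have all sKO points above Ctrl.

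Relative to the transport class, the mitotic class was lower in every sKO library than in every Ctrl library. The summed gene body signal of the mitotic kinesins was 124.8%, 105.2% and 104.8% of that of the transport kinesins in Ctrl replicates 1 to 3 and 52.2%, 52.8% and 48.7% in sKO replicates 1 to 3. The mean over genes of log2(TPM + 0.5) was higher for mitotic than for transport kinesins by 1.35 ± 0.14 (SD, n = 3) in Ctrl and by 0.17 ± 0.063 (SD, n = 3) in sKO libraries. In the TSS region this difference was 2.01 ± 0.29 (SD, n = 3) and 0.92 ± 0.050 (SD, n = 3) on the scale log2(RPM + 0.5). The libraries of the genotypes did not overlap in either region. As both classes were chosen with results of these data known, no test was made of this difference.

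**Figure D4:**
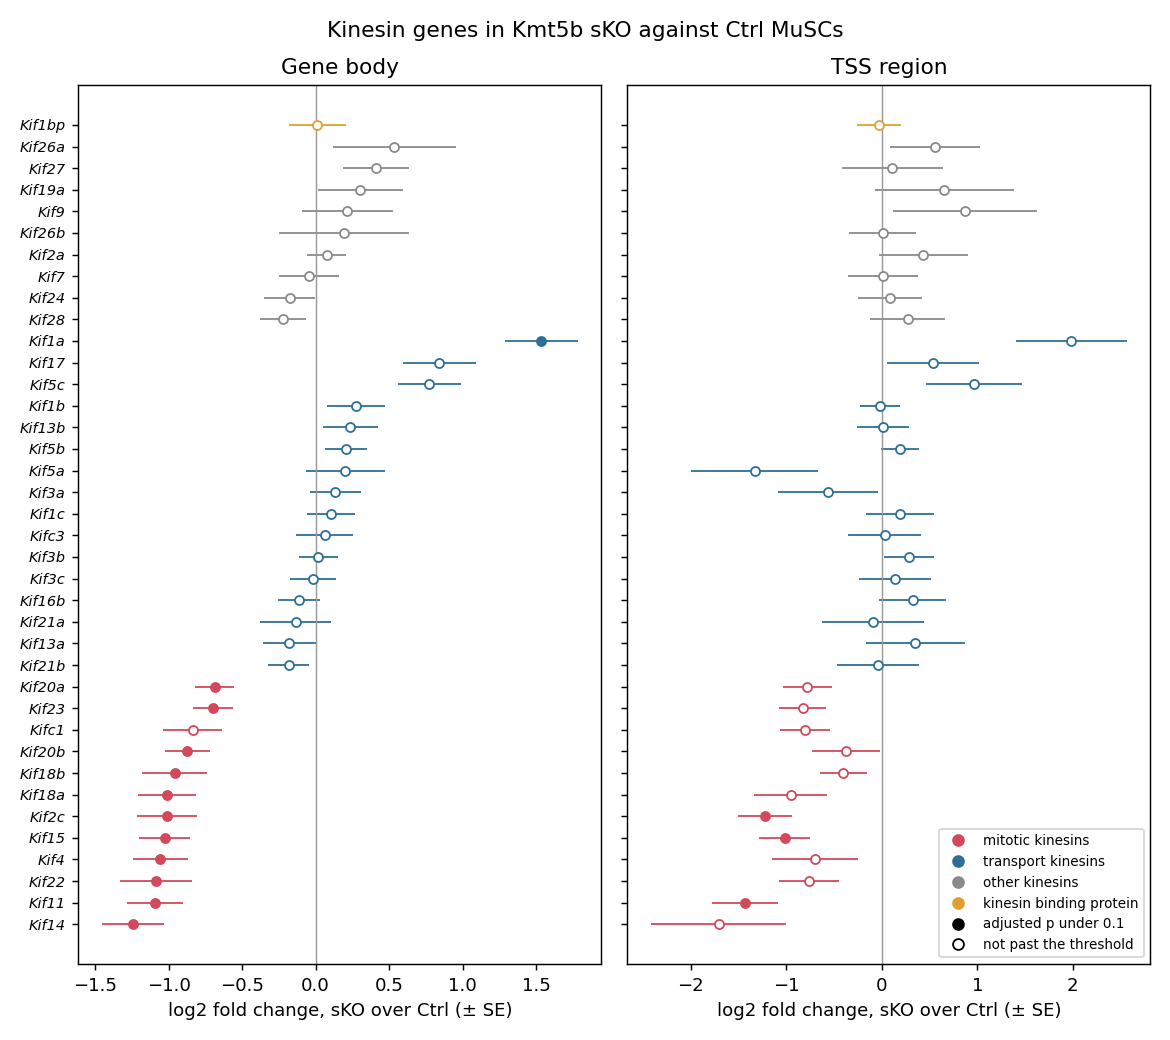
Log2 fold change of Kmt5b sKO over Ctrl with its standard error for the 38 kinesin genes with a fit, in the gene body (left) and the TSS region (right), coloured by class; filled points passed an adjusted p under 0.1. All mitotic kinesins lie to the left of 0 in both regions. The transport kinesins lie on both sides of it, from -1.33 for *Kif5a* to 1.98 for *Kif1a*, both in the TSS region. The class of other kinesins lies on both sides in the gene body and wholly to the right in the TSS region.

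Among the 9 other kinesins, 0 were called in either region in limma (0 at an unadjusted p under 0.05), and 0 in edgeR and DESeq2. Their median log2 fold change was 0.19 in the gene body and 0.27 in the TSS region. In the TSS region 9 of 9 were positive, as were 58.2% of all tested genes. They include *Kif2a*, a microtubule depolymerase of spindles and neurons, which had 22.2, 24.6 and 24.1 TPM in Ctrl libraries, against 25.6, 27.4 and 22.1 TPM in sKO libraries, unlike its relative *Kif2c*. *Kif24*, a kinesin-13 of the centriole, had 27.5, 22.7 and 22.5 TPM against 22.3, 17.2 and 25.2 TPM. At both genes the groups overlapped. The log2 fold changes in the gene body ran from -0.22 for *Kif28*, which shares its strand with the overlapping *Ahctf1*, to 0.54 for *Kif26a*, at low values (0.30 TPM in Ctrl). *Kif27*, a ciliary kinesin, was the one with all sKO libraries above Ctrl (0.42, 0.41 and 0.55 against 0.76, 0.77 and 0.79 TPM, adjusted p = 0.444 in limma). *Kif1bp* had a log2 fold change of 0.013 in the gene body (SE 0.19, adjusted p = 0.988 in limma).

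The pausing index, which divides the TSS value by that of the gene body, was compared for the 33 autosomal kinesins above 0 in both regions of all libraries. In limma 0 of 33 were called (0% of all 11698 tested genes) and 2 had an unadjusted p under 0.05 (3.86%), both higher, and edgeR and DESeq2 on recovered reads called 0 as well (1 and 0 at an unadjusted p under 0.05). *Kif18b* had an index of 4.01, 2.82 and 3.32 in Ctrl and 4.88, 5.62 and 4.56 in sKO libraries, and *Kif1a* one of 0.88, 0.47 and 0.57 against 1.0, 0.86 and 1.30. At *Kif18b* the groups did not overlap, and at *Kif1a* Ctrl replicate 1 exceeded the lowest sKO library. The median log2 difference of the index was 0.045 for mitotic and 0.095 for transport kinesins, beside 0.053 over all genes.

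Genes of proteins that work with the mitotic kinesins had lower values as well. Of 18 genes of spindle and midzone partners 18 had a negative log2 fold change in the gene body, 8 were called lower (1.38% of all tested genes were) and 0 higher, and the median was -0.95. In the TSS region 4 of 18 were called lower (0.731% of all tested genes). *Cenpe*, itself a kinesin motor of kinetochores that the naming rule does not reach, had 24.6, 24.6 and 15.6 TPM in Ctrl libraries, against 10.02, 9.71 and 8.93 TPM in sKO libraries (adjusted p = 0.0691 in limma). *Tpx2*, the spindle assembly factor that acts with KIF11 and KIF15, had 32.7, 30.6 and 23.7 TPM against 14.02, 14.25 and 13.21 TPM (adjusted p = 0.0610 in limma). *Hmmr* (log2 fold change -1.15), *Nusap1* (-1.06), *Incenp* (-0.99), *Anln* (-0.97), *Spag5* (-0.94) and *Ect2* (-0.84) were called lower as well. *Birc5*, of the chromosomal passenger complex, was called in the TSS region alone (log2 fold change -1.09, adjusted p = 0.0627 in limma), as *Incenp*, *Anln* and *Hmmr* were in both regions. *Racgap1*, which forms centralspindlin with KIF23, had 36.1, 33.8 and 19.4 TPM against 13.2, 15.0 and 14.9 TPM and missed the threshold (adjusted p = 0.110 in limma).

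Markers of proliferation were lower in the same libraries. In the gene body 6 of 10 were called lower (beside 1.38% of all tested genes), namely *Pcna*, *Cdk1*, *Top2a*, *Ccna2*, *Mcm5* and *Mcm3*, with a median log2 fold change of -1.10, and in the TSS region 4 of 10 (beside 0.731%). Their summed gene body level was 435.9 to 590.7 TPM in Ctrl and 248.5 to 311.8 TPM in sKO libraries. *Ccnb1* had 89.0, 82.9 and 90.6 TPM in Ctrl libraries, against 76.9, 93.2 and 89.5 TPM in sKO libraries, and these overlapped. Muscle differentiation markers had higher values, with 10 of 10 positive, 2 called higher in the gene body (*Myl1* and *Tnnc1*, beside 1.61% of all tested genes) and a median of 0.91. Mature fibre markers had a summed level of 442.2 to 959.6 TPM in Ctrl and 1146 to 1582 TPM in sKO libraries, with 7 of 7 in the table, 4 tested and 0 called in limma (4 at an unadjusted p under 0.05). The part of the state of the cultures in the values of the mitotic kinesins was not tested.

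Partners of the transport kinesins resembled the transport kinesins. Of 14 tested genes of kinesin light chains and cargo adaptors 0 were called in either region in limma (0 in the gene body and 1 in the TSS region at an unadjusted p under 0.05), with a median log2 fold change of 0.050 in the gene body. Of 22 tested genes of cytoplasmic dynein and dynactin, the machinery of transport in the opposite direction, 0 were called in either region in limma (3 and 2 at an unadjusted p under 0.05), with a median of 0.098.

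**Figure D5:**
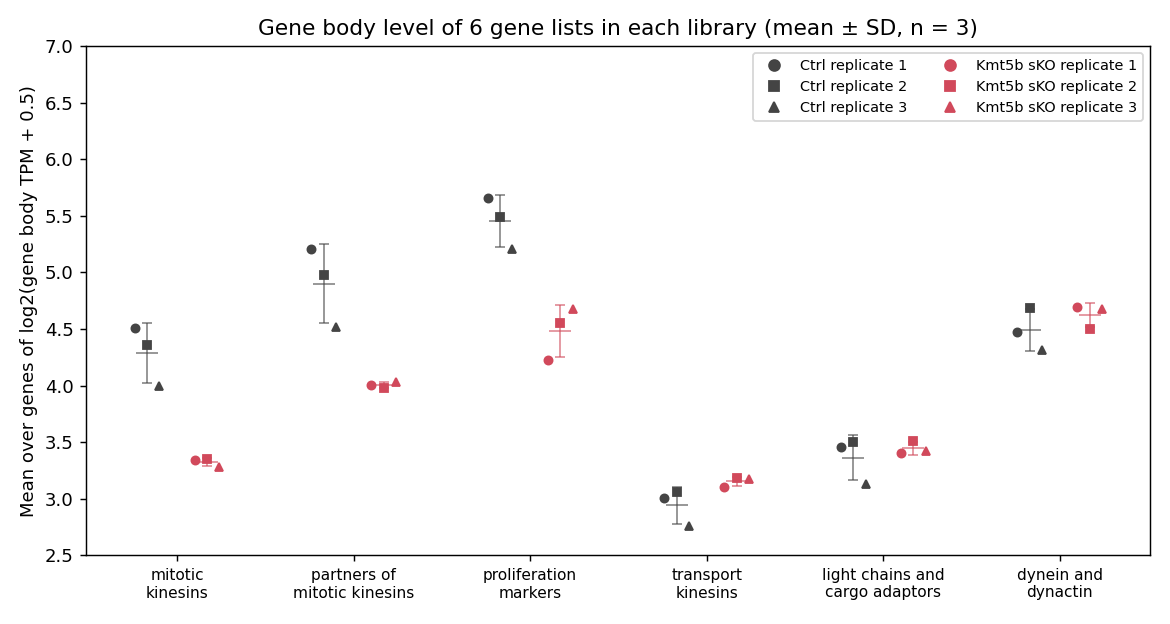
Mean over genes of log2(gene body TPM + 0.5) in each library for the mitotic kinesins, their partners, proliferation markers, transport kinesins, light chains and cargo adaptors, and dynein with dynactin; bars show the mean ± SD of 3 libraries. The first 3 lists have all sKO points below Ctrl, and Ctrl replicate 3 is the lowest Ctrl point in every list.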

How the data were processed

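The data are 3 Ctrl and 3 Kmt5b sKO PRO-seq libraries from MuSC cultures. Per the submitters' processing notes and methods, the authors used Trimmomatic 0.39 for trimming and STAR 2.6.1d for alignment to GRCm38, with 1 random position kept for reads with several matches, then removed duplicates with Picard 2.18.16 and counted sense reads per isoform. The TSS values that the authors deposited are RPM by their sums, although the methods name TPM for both regions. The gene body values that the authors deposited are TPM. Both are scaled to a fixed total per library, which removes a change in total transcription.

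The test was limma 3.58.1 under R 4.3.3 (lmFit, then eBayes with trend) on log2(value + 0.5), comparing genotypes without covariates, for autosomal genes whose mean reached 0.5 in both regions. Reads recovered from the value steps came out whole for 99.1% to 100% of TSS values and served tests with edgeR 4.0.16 and DESeq2 1.42.0. Alternatives were other pseudocounts, filters, thresholds and scalings, no trend, X and Y genes kept, each library left out and the replicate number as a block. The tests were tried on simulated data. The kinesins, their classes, the other gene lists and the genes given by library (mitotic kinesins, called kinesins, the 3 transport kinesins highest in Ctrl, others at an unadjusted p under 0.05 or at the end of a range, and called members of the other lists) were chosen with earlier results of these data known, and list values are descriptions. *Kif2a*, *Kif24*, *Kif3a*, *Kif3b*, *Kif27*, *Kif1bp*, *Kifc5b*, *Racgap1* and *Ccnb1* were added after their values were seen. Promoters are those of RefSeq on GRCm38.p6. *Kif2b*, *Kif6* and *Kif12* were not among the genes that the authors list, so they were not analysed here. Other tools were Python 3.11.15, pandas 2.3.3, scipy 1.17.1 and matplotlib 3.10.9.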

Additional observations from a re-analysis of the deposited data

How the results depend on the processing

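All 12 mitotic kinesins had negative log2 fold changes in both regions under every alternative in which they were tested, and the median log2 fold change of the class in the gene body stayed between -1.16 and -0.89 with 1 library left out. The number of kinesins called in the gene body, 11 in limma beside 372 of all 12451 tested genes, fell to 0 at an adjusted p under 0.05 (11 lower and 3 higher at an unadjusted p under 0.05). At that threshold 1 of all tested genes was called. The number of kinesins was 9 to 12 with other pseudocounts, filters, scaling or no trend, where 310 to 502 of all tested genes were called. It was 13 in edgeR (748 of all) and 14 in DESeq2 (1295 of all). With 1 library left out it ranged from 0 to 13 (0 to 836 of all). The number called in the TSS region, 3 in limma, was 0 with no filter on low values, 0 in eBayes with no trend and 0 at the stricter adjusted p of 0.05 (7, 9 and 9 lower at an unadjusted p under 0.05), and 5 in DESeq2. It ranged from 0 (without Ctrl replicate 1 or sKO replicate 2) to 5 (without Ctrl replicate 3), with 1 when sKO replicate 1 or 3 was left out. Over all tested genes the TSS counts were 0 with no filter, 0 with no trend, 64 at an adjusted p under 0.05 and 295 in DESeq2. They were 1 without Ctrl replicate 1 and 270 without Ctrl replicate 3. Without sKO replicates 1, 2 and 3 in order they were 16, 132 and 46. With 1 library left out, the median in the TSS region ranged from -1.10 (without Ctrl replicate 3) to -0.62 for mitotic and from 0.10 to 0.24 for transport kinesins. The transport median in the gene body ranged from -0.0057 (without Ctrl replicate 3) to 0.236 (without Ctrl replicate 2). *Kif4* kept a gene body log2 fold change of -1.06 but was not called at an adjusted p under 0.05 (adjusted p = 0.0685, and 5.07e-07 to 0.251 over all alternatives). Its values with 1 library left out ranged from -1.20 to -0.89, and it was called only without Ctrl replicate 3. Of all 12877 genes in these fits, 0 were called without Ctrl replicate 1 or any single sKO library. The pausing index gave 0 calls in every alternative.

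Samples with the same replicate number did not deviate together (correlations from -0.33 to -0.034). These correlations cannot show whether such samples were prepared together. With the replicate number as a block, 0 kinesins were called in the gene body and 0 in the TSS region in limma (11 and 9 lower at an unadjusted p under 0.05), and *Kif4* had -1.06 without a call (adjusted p = 0.251). In these block fits 0 of all tested genes were called. Depth limits the TSS values of *Kif9*, *Kif19a*, *Kif1a*, *Kif14* and *Kif5a*, which had at most 13 reads in any library, and *Kifc2* had 0.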
